A study of Mus musculus with 8 samples.

Results

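The granzymes and perforin are the killing proteins of cytotoxic lymphocytes, and their transcripts were examined in RNA of liver macrophages from C57BL/6 mice, an inbred strain. There were 4 libraries from mice on a normal diet (ND) and 4 from mice on a western diet (WD). Members were taken as every gene of the authors' deposited table whose symbol starts with Gzm, together with Prf1. This gave 4 genes (Gzmb, Gzmc, Gzmk and Prf1) of the 2386 in the table. The table holds 1 fold change per gene for the whole comparison, WD over ND, so no value of a single library, no spread between libraries and no depth can be given. Errors are the standard errors (SE) of log2 fold changes that the authors deposited, or 95% intervals made from them. The table calls its groups WDV and NDV without explaining the V, and they are read here as the WD and ND libraries. No genotype, transgene or further treatment is given in the labels for either group. The sources used here do not give age, sex, the make-up and length of the diet, or how macrophages were isolated.

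Granzymes are serine proteases stored in the secretory granules of natural killer (NK) cells and cytotoxic T cells, and perforin is the protein that opens the target cell membrane to them. Granzyme B cuts after aspartate and starts apoptosis in the target cell. Genes of the granzyme B group lie in a cluster with mast cell chymases and cathepsin G, while granzymes A and K sit together on another chromosome. In the liver, NK cells and related innate lymphocytes lie in the sinusoids beside the resident macrophages. Mast cells and other leukocytes can also carry granzyme B.

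The letters before the start sites of the 3 members that passed the test are shown because these genes moved in the same direction. Each line gives the 250 bases before the RefSeq gene start (build GRCm38.p6), 5′ to 3′ on the gene's own strand. The Gzmb window is chr14:56262335-56262584 (minus strand), the Gzmc window chr14:56234658-56234907 (minus strand) and the Prf1 window chr10:61297586-61297835 (plus strand). All 4 members matched a RefSeq entry by symbol. Distances of matches are counted from RefSeq starts. These can differ from the GENCODE coordinates given below, by which Gzmb starts at 56262260. Capitals mark matches, on either strand, to the letters TGANTCA (AP-1), GACGTCA (the core of a cyclic AMP response element, CRE), TGTGGT (RUNX), TCACAC (T-box) and CAGGAAG (ETS).
Gzmb: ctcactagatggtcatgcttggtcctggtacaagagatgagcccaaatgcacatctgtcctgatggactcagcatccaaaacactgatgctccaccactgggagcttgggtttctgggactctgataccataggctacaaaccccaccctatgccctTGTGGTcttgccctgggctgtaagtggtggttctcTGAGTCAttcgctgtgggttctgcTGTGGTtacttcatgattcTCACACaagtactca
Gzmc: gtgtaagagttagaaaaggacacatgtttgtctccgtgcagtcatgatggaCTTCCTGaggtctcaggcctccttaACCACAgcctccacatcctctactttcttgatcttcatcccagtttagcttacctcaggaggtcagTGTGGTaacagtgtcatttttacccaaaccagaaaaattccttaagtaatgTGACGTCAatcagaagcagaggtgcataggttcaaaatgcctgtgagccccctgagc
Prf1: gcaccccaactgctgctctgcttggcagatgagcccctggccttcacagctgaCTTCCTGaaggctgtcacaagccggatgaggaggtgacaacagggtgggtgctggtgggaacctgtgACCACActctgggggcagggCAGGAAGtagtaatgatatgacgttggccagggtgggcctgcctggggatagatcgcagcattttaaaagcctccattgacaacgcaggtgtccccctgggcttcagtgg

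The RUNX letters were found in all 3 windows shown, and 14% of 32851 mouse promoter windows of the same length hold them. The window of Gzmk, which was not called and is not shown, did not hold them. Gzmb carried them 93 and 34 bases before its start, Gzmc 174 and 108 bases before, and Prf1 once, 130 bases before. AP-1 letters stood in the Gzmb window, 58 bases before the start, and are held by 6.7% of all windows. The T-box letters of Gzmb lay 15 bases before the start (12.3% of all windows). Gzmk held the T-box letters 74 and 49 bases before its start. Gzmc held the CRE core on both strands of 1 overlapping stretch, 57 bases before its start, and 2.8% of all windows hold it. ETS letters were found once before Gzmc and 2 times before Prf1 (10.8% of all windows). A match describes the letters and is not a measured binding site.

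Gzmb and Gzmc rose under western diet, Prf1 rose by a smaller fold, and Gzmk was too sparse to call. A gene was called at an adjusted p below 0.05 by the authors' test, in a table that holds only genes with an unadjusted p below 0.05 and a change of more than 2-fold. Of the 11 mouse granzyme genes and Prf1 considered together, 3 were called higher, none was called lower, 1 was listed without an adjusted p, and 7 were not listed. Among 17531 tested genes, a number recovered from the adjusted p-values, 3.0% were called higher by the same rule. Being listed already required a change of more than 2-fold, so the size of these fold changes is partly set by the table.

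Gzmb encodes granzyme B (ENSMUSG00000015437, chromosome 14, 56258838 to 56262260, minus strand, GENCODE M21 on GRCm38). Its mean normalized count over the libraries, which is a read count divided by a size factor, was 613.1 in the authors' deposited table. Gzmb rose 2.85-fold in the authors' deposited table (95% interval, 2.07 to 3.93), a log2 fold change of 1.51 ± 0.24 (SE) with an adjusted p of 3.16e-09. This interval lies wholly above 2-fold, which held for 0.650% of tested genes on the higher side. The mean and the fold change of the authors' deposited table together imply 318 normalized counts in ND and 908 in WD for Gzmb. Such implied levels take the fold change as the ratio of the means of equally sized groups and are approximate. Of the 526 genes called higher in the authors' deposited table, Gzmb ranked 71 by mean count, 98 by p and 195 by fold change.

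Gzmc encodes granzyme C (ENSMUSG00000079186, chromosome 14, 56231441 to 56234656, minus strand), a close relative of granzyme B with less well known substrates. It was the less abundant and more strongly raised gene of the pair. The mean normalized count of Gzmc was 60.86 in the authors' deposited table, and the implied levels were 17.0 in ND and 105 in WD. Gzmc rose 6.16-fold in the authors' deposited table (95% interval, 3.72 to 10.2), a log2 fold change of 2.62 ± 0.37 with an adjusted p of 3.59e-11. It ranked 32 by fold change and 69 by p among the genes called higher in the authors' deposited table. The log2 fold change of Gzmc exceeded that of Gzmb by 1.11. The 95% intervals of the pair in the authors' deposited table, 1.90 to 3.35 for Gzmc and 1.05 to 1.98 for Gzmb, overlapped slightly. The difference was not tested, because both genes were measured in the same libraries and their covariance is unknown. By the implied levels, Gzmc reads amounted to 5.34% of Gzmb reads in ND and 11.5% in WD, without correction for length.

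Prf1 encodes perforin (ENSMUSG00000037202, chromosome 10, 61297833 to 61304680, plus strand). Its mean normalized count was 160.4 in the authors' deposited table, with implied levels of 104 in ND and 216 in WD. Prf1 rose 2.07-fold in the authors' deposited table (95% interval, 1.43 to 3.01), a log2 fold change of 1.05 ± 0.27 with an adjusted p of 8.58e-04. It therefore lay just inside the 2-fold limit of the table, and its interval reached below that limit. After a Bonferroni adjustment over the 17531 tested genes Prf1 no longer passed, while Gzmb and Gzmc did, as did 1.25% of tested genes on the higher side. Prf1 ranked 468 of 526 by fold change in the authors' deposited table. The log2 interval of Prf1 in the authors' deposited table, 0.51 to 1.59, overlapped that of Gzmb and ended below that of Gzmc.

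Gzmk encodes granzyme K, a protease that cuts after basic residues (ENSMUSG00000042385, chromosome 13, 113171608 to 113225908, minus strand). It was close to undetected, with a mean normalized count of 1.646 in the authors' deposited table. Gzmk had a log2 fold change of 3.17 ± 1.45 in the authors' deposited table (95% interval, 0.33 to 6.01) and an unadjusted p of 0.0285. Its adjusted p was empty, as for the other genes of the table with a mean count of 2.02 or less, so it was not called. The implied levels were 0.329 normalized counts in ND and 2.96 in WD. The GENCODE gene model of Gzmk overlaps Esm1, an endothelial gene on the opposite strand that fell (log2 -2.16 ± 0.34 by the authors' deposited table). The window before the RefSeq start of Gzmk, 113180966 to 113181215, lies inside that model and short of Esm1 (113209659 to 113218098). The exons of the 2 genes share 0 bases in GENCODE M21.

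**Figure D1:**
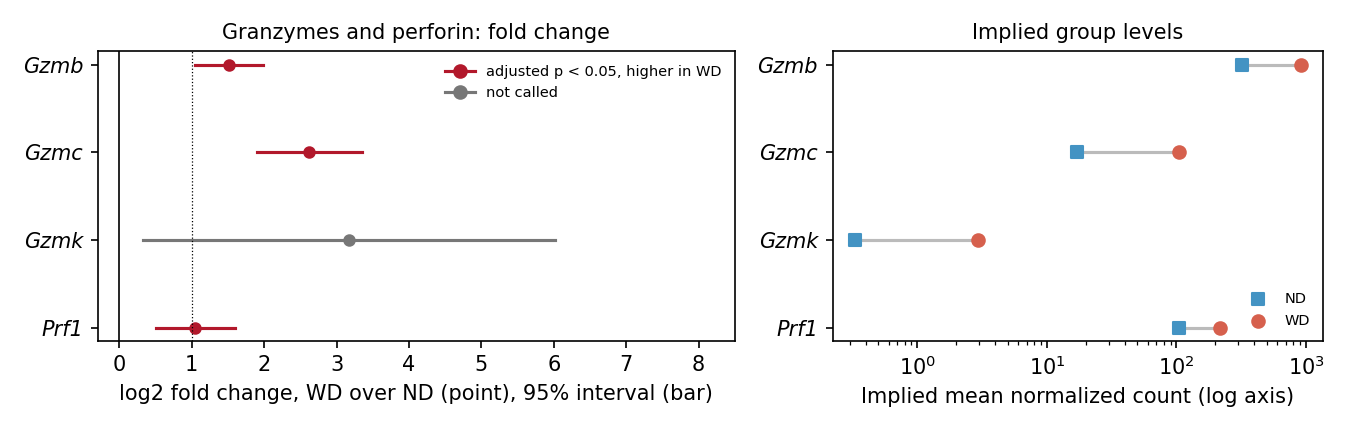
Left, log2 fold change of each member, WD over ND, from the authors' deposited table (points) with 95% intervals (bars); the dotted line marks the table's limit of 1. Right, the mean normalized counts in ND (squares) and WD (circles) implied by each gene's overall mean and fold change, on a log axis. Gzmb, Gzmc and Prf1 have intervals above 0, with Gzmc at 2.62, and the interval of Gzmk runs from 0.33 to 6.01.

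Per length of transcript, and over both diets together, the order of levels was Gzmb, Gzmc, Prf1 and Gzmk. Mean normalized counts from the authors' deposited table, divided by the summed exon length of each gene in GENCODE M21, came to 427 per kb for Gzmb. The same quantity from the authors' deposited table was 68.1 per kb for Gzmc, 62.1 per kb for Prf1 and 1.18 per kb for Gzmk. The order of Gzmc and Prf1 differed between the diets. The implied levels from the authors' deposited table were 19.0 per kb for Gzmc and 40.4 per kb for Prf1 in ND, and 117 per kb for Gzmc and 83.7 per kb for Prf1 in WD. Gzmb was highest in both diets, at an implied 222 per kb in ND and 632 per kb in WD by the authors' deposited table, and Gzmk was lowest. The spread over libraries is not in the table, so whether Gzmc and Prf1 differ in level in either diet could not be judged.

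**Figure D2:**
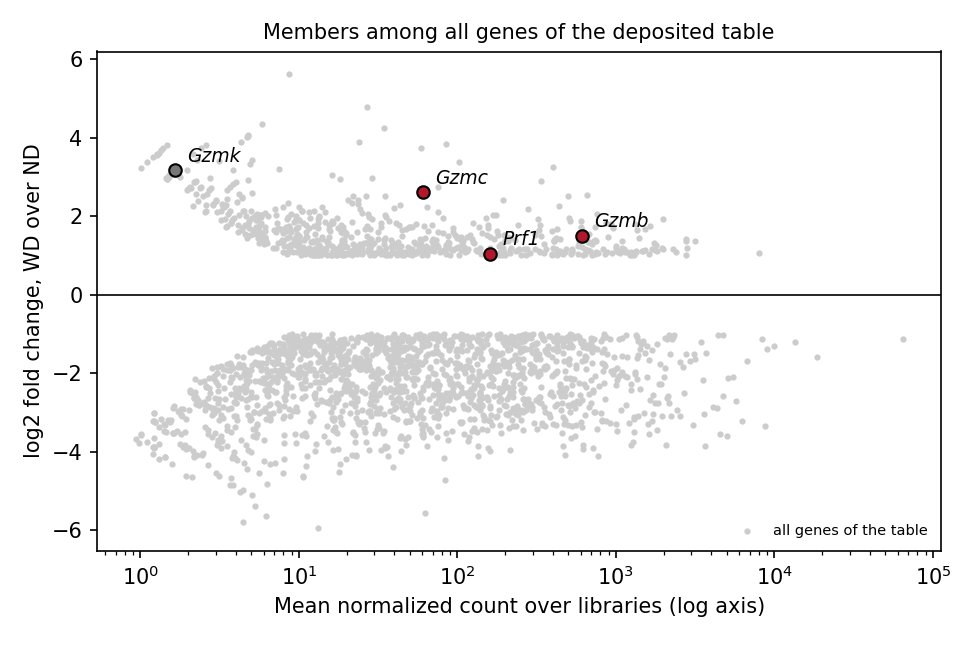
Mean normalized count (log axis) against log2 fold change, WD over ND, for all 2386 genes of the authors' deposited table (grey), with the members in red where called and dark grey where not. The empty band between -1 and 1 is the table's own limit. Gzmb stands among the abundant genes, Prf1 at the lower edge of the genes that rose, and Gzmk in the fan of sparse genes at the left.

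Gzmb and Gzmc are neighbours, and only part of their cluster was in the table. The cluster on chromosome 14 holds 7 granzyme genes and 8 related serine proteases over 321 kb. Gzmb and Gzmc stand at its end, 24.2 kb apart. The other 5 granzyme genes of the cluster (Gzmd, Gzme, Gzmf, Gzmg and Gzmn) were not listed, nor were Gzma beside Gzmk on chromosome 13 and Gzmm on chromosome 10. For a gene that is not listed, the table does not tell a small or uncertain change from absent reads. Of the 8 other proteases of the cluster, 3 (37.5%, against 3.0% of tested genes) were called higher and 5 had no row. The mast cell chymase genes Cma1 and Mcpt4 stood at log2 fold changes of 3.38 ± 0.64 and 4.26 ± 1.0 by the authors' deposited table. Mcpt8, a basophil protease gene, stood at 1.60 ± 0.43 in the authors' deposited table. The other listed gene within 500 kb of Gzmb was Nynrin, with a log2 fold change of -2.38 ± 0.46 in the authors' deposited table. Of the listed genes within 500 kb of Prf1, Pald1 (-1.0 ± 0.20), Unc5b (-1.63 ± 0.28) and H2afy2 (-1.16 ± 0.44) all fell in the authors' deposited table. Most listed genes fell, 1680 of the 2386.

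**Figure D3:**
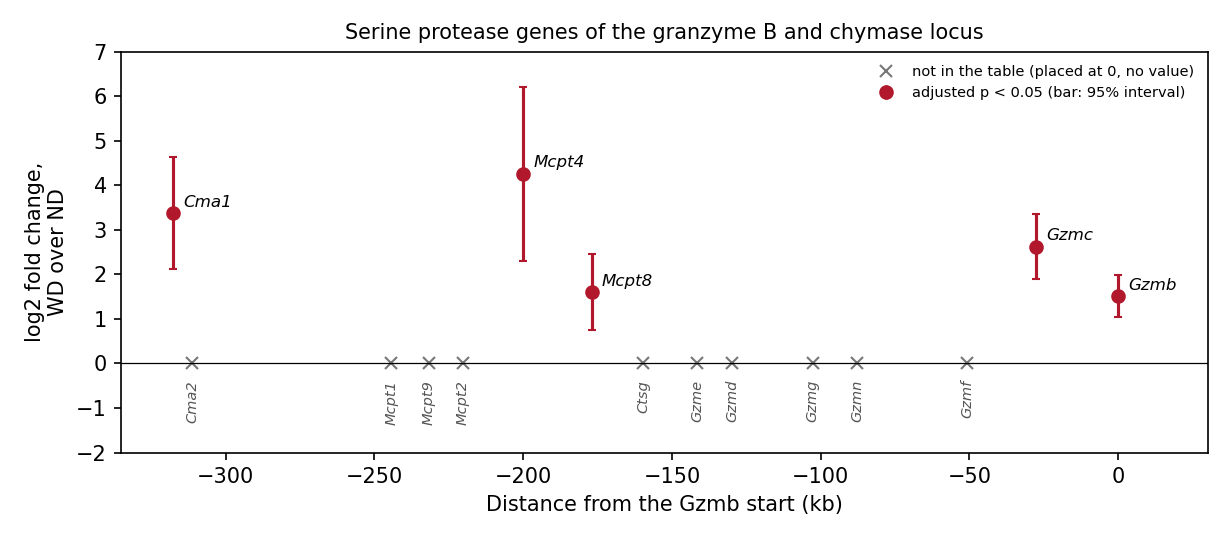
Log2 fold change, WD over ND, in the authors' deposited table (points, with 95% intervals) against distance in kb from the Gzmb start, for the 15 serine protease genes of the chromosome 14 cluster. Crosses at 0 mark the 10 genes that were not in the table and have no value. The 5 listed genes all rose, from 1.51 for Gzmb to 4.26 for Mcpt4.

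Reads of related granzymes could be exchanged where transcripts share letters. The coding sequence of Gzmc was 75.6% identical to that of Gzmb in a global alignment, and from 69.5% to 72.8% identical to those of Gzmd, Gzme, Gzmf, Gzmg and Gzmn. Of the 845 windows of 50 bases in the longest coding Gzmc transcript, 35 (4.1%) occur in Gzmd, Gzme or Gzmg transcripts, and 0 of its 795 windows of 100 bases occur in another gene. Gzmb, Gzmk and Prf1 shared 0 windows of 50 bases with other genes. How the authors assigned reads that match several genes is not given in the sources used here, and these window shares count exact matches only. The count of Gzmc is therefore uncertain by an amount that these shares do not bound.

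Of 15 genes of granule maturation and release, Nkg7, which encodes a granule membrane protein of cytotoxic lymphocytes, was the single call (6.67%, against 3.0% of tested genes called higher), and 13 were not listed. Nkg7 rose 2.30-fold (1.20 ± 0.29 on the log2 scale) at an adjusted p of 2.33e-04, as the authors' deposited table gives it. Cst7, which encodes cystatin F, an inhibitor of granzyme-activating cathepsins, stood at 1.48 ± 0.71 in the authors' deposited table with an adjusted p of 0.104 and was not called. Ctsc, the cathepsin that activates granzymes, and Srgn, the proteoglycan core of the granule, were not listed. Of 4 serpins that inhibit granzymes, 2 rose and 2 were not listed. Serpinb9, the intracellular inhibitor of granzyme B, rose 2.60-fold in the authors' deposited table (1.38 ± 0.25, adjusted p 3.72e-07). Serpinb6b, another intracellular serpin gene, rose 2.88-fold in the authors' deposited table (1.52 ± 0.23).

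Of 14 transcription factors of cytotoxic lymphocytes, 4 rose, none fell and 9 were not listed, against 3.0% of tested genes called higher. Runx3 (1.23 ± 0.19) and Stat4, which carries the interleukin-12 signal (1.37 ± 0.21), had the smallest p-values of the list in the authors' deposited table. Eomes and Tbx21, the T-box factors of NK and effector T cells, stood at 1.12 ± 0.37 and 1.0 ± 0.33 in the authors' deposited table. Both passed at an adjusted p of 0.0105 and 0.0115 and would not pass at 0.01. Tox did not pass, at 1.40 ± 0.64 and an adjusted p of 0.0854 by the authors' deposited table.

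Of 15 cytokines that induce granzymes and their receptors, 8 (53.3%) were higher, none was lower and 7 were not listed. Among tested genes 3.0% were called higher. Both chains of interleukin-12 rose, Il12b (2.43 ± 0.31) and Il12a (1.83 ± 0.57), both values being log2 fold changes of the authors' deposited table. Its receptor chains Il12rb1 and Il12rb2 rose by 2.23 ± 0.50 and 1.89 ± 0.29 in the authors' deposited table. The interleukin-2 receptor genes Il2ra and Il2rb stood at 1.68 ± 0.29 and 1.42 ± 0.23 in the authors' deposited table. Il2rb also serves interleukin-15. The interleukin-18 receptor genes Il18r1 and Il18rap rose by 1.10 ± 0.24 and 1.06 ± 0.23 in the authors' deposited table. Il2, Il15, Il18 and Il21 were not listed.

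Other effectors of cytotoxic lymphocytes did not move in 1 direction. Of 8 genes, 2 rose, 1 fell and 5, Ifng and Tnf among them, were not listed. Fasl, the ligand of the death receptor Fas, rose 2.43-fold in the authors' deposited table (1.28 ± 0.36, adjusted p 0.00244). Ccl5, a chemokine gene of activated T and NK cells, rose 3.32-fold in the authors' deposited table (1.73 ± 0.29). Tnfsf10, the death ligand TRAIL, fell 6.83-fold in the authors' deposited table (-2.77 ± 0.28, adjusted p 5.40e-21). Among tested genes 3.0% were called higher and 8.35% lower. All 8 markers of sinusoidal endothelium fell too, between -3.59 (Kdr) and -2.58 (Dnase1l3) on the log2 scale of the authors' deposited table. Their implied levels ran from 2383 (Egfl7) to 11210 (Ptprb) normalized counts in ND. In WD they ran from 211 (Egfl7) to 1528 (Stab2). The part of endothelial RNA in the fall of Tnfsf10, and in the granzyme and perforin values, was not tested.

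**Figure D4:**
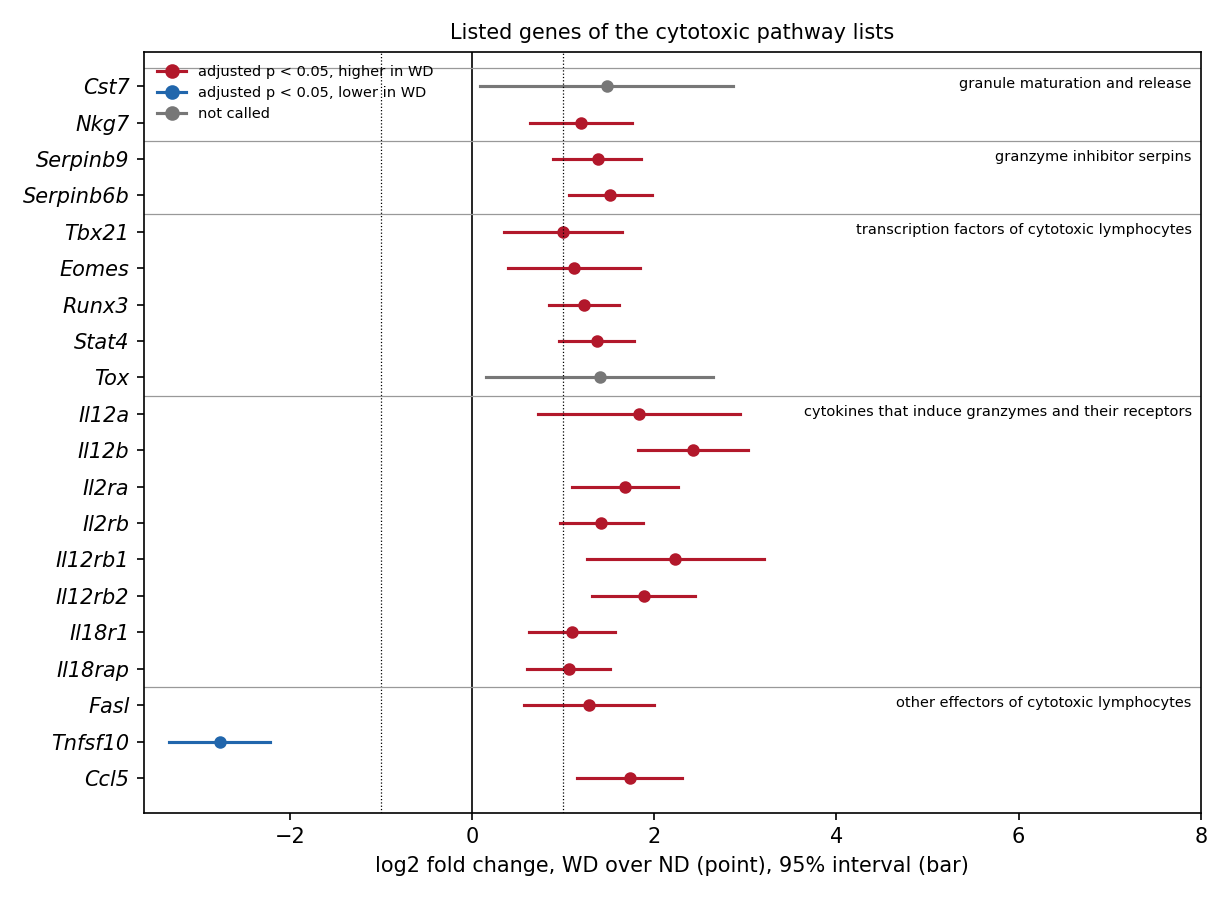
Log2 fold change, WD over ND, from the authors' deposited table (points) with 95% intervals (bars), for the listed genes of 5 lists: granule maturation and release, granzyme inhibitors, transcription factors, inducing cytokines with receptors, and other effectors. Red and blue mark genes called higher and lower, grey genes not called, and dotted lines the table's limits. Tnfsf10 alone lies below 0.

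Some markers of lymphocytes and mast cells moved with the granzymes in this macrophage preparation. The counts that follow stand against the 3.0% of tested genes called higher. The marker lists were chosen with earlier results of these data known, so the contrast may in part reflect that choice. Of 9 NK cell markers, 7 (77.8%) rose, none fell and 2 (Klrb1c and Klra4) were not listed. The NK cell receptor genes Klrk1 (1.87 ± 0.20), Klrd1 (1.38 ± 0.21) and Ncr1 (1.34 ± 0.30) were among those that rose in the authors' deposited table. The listed NK markers had a median of 1.12 with a range from 1.01 to 1.87. Of 12 T cell markers, 4 (33.3%) rose (Cd8a, Thy1, Trbc1 and Trbc2), 2 were listed without passing and 6 were not listed. Trac and Cd8b1 missed the limit at adjusted p-values of 0.0766 and 0.132 in the authors' deposited table. Cd8a stood at 1.73 ± 0.59 in the authors' deposited table. Over the listed T cell markers, mean normalized counts per kb of exon ran from 2.70 (Cd8a) to 82.7 (Trbc1). Trbc1 was above Gzmc (68.1) and Prf1 (62.1) and below Gzmb (427). The other listed T cell markers, with Trbc2 at 40.5, were below each of these members. Cd3d, Cd3e and Cd3g, which define T cells, were not listed. Mast cell and basophil markers had 6 of 10 (60%) higher, 1 lower and 3 (Hdc, Gata2 and Prss34) not listed. Cpa3 stood at 3.75 ± 0.74 in the authors' deposited table. Kit, a mast cell marker that other cells also use, fell, with a log2 fold change of -1.74 ± 0.15 in the authors' deposited table. Of 7 plasmacytoid dendritic cell markers, Ccr9 was the single call (1.15 ± 0.37 in the authors' deposited table), and a count of 1 is too small to set apart from the background share. The part of these cells in the granzyme and perforin values was not tested. None of 12 macrophage and Kupffer cell markers was listed, so the label could not be checked against their levels. In RNA from a whole preparation, more cells of a type and more RNA per cell cannot be told apart.

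The authors' own term enrichment, computed on genes with a positive fold change, placed the members in 17 of its 451 terms. Of these, 11 had a Benjamini p below 0.05, 9 with Gzmb, 9 with Prf1, 2 with Gzmc and 1 with Gzmk. The KEGG term natural killer cell mediated cytotoxicity held 12 genes, Gzmb and Prf1 included, at a Benjamini p of 1.15e-05 in the authors' deposited table. Graft-versus-host disease and allograft rejection held 9 genes each, both with Gzmb and Prf1, at Benjamini p-values of 2.61e-05 and 2.76e-05 in the authors' deposited table. The Gene Ontology (GO) term cytolysis held 4 genes, Fgl2, Gzmb, Gzmc and Prf1, at 15.0-fold enrichment and a Benjamini p of 0.0428 in the authors' deposited table. Proteolysis held 19 genes, with Gzmb, Gzmc and Gzmk among them, at 3.06-fold and a Benjamini p of 0.00225 in the authors' deposited table. Of these 19 genes, 15 had an adjusted p below 0.05 in the comparison of diets, and Gzmk was not among those 15. The narrower GO terms T cell mediated cytotoxicity (Gzmb, Prf1 and Serpinb9) and natural killer cell mediated cytotoxicity (Gzmb, Gzmc and Nkg7) had Benjamini p-values of 0.118 and 0.331 in the authors' deposited table. These terms were computed on the same genes and are not independent of the fold changes above.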

How the data were processed

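RNA of 8 libraries of liver macrophages (4 ND, 4 WD, grouped by the diet label) had been sequenced after oligo(dT) enrichment, per the labels' protocols. The build is mm10, and the tools listed, with no role or version, are DESeq, edgeR, featureCounts, HISAT2, STAR, STAR-Fusion and StringTie, per the submitters' processing notes. Per the file headers, the deposited columns carry DESeq2 result names: mean normalized count (a signal), log2 fold change with its SE, test score, p-value and adjusted p-value. The authors' enrichment gives a fold enrichment ratio and a Benjamini p-value per term. How size factors were set and multiply matching reads handled is not given in the sources used here.

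The test score equalled the log2 fold change over its SE in the deposited table (largest departure, 7.1e-08). The number of tested genes was the whole number that makes most ranks (p-value times that number over adjusted p) whole within 0.02 in the deposited table. It was 17531 and gave whole ranks for 91.0% of genes. The step was also run on a simulated table, and the outcome is not given here. Intervals at 95% assume a normal error. Gene identifiers matched GENCODE M21 for all 2386 genes. Promoters come from RefSeq GRCm38.p6. Computation used Python 3.11.15, pandas 2.3.3, numpy 2.4.6, scipy 1.17.1 and Biopython 1.88.

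Members and lists were chosen with earlier results of these data known, so no p-value was computed over a list. The list counts set against the share of tested genes may in part reflect that choice. A list of granzyme substrates is not reported here. Genes named were the members, listed genes of the lists, listed genes within 500 kb of a member, and the 3 nearest listed genes in log2 mean count and log2 fold change. Library numbers run from 31 to 35 in ND and from 21 to 29 in WD, so an order they may follow cannot be told apart from diet. Alternatives tried were an adjusted p below 0.01, Bonferroni adjustment, an interval beyond 2-fold, the unadjusted p and a mean count of at least 10.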

Additional observations from a re-analysis of the deposited data

How the results depend on the processing

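No value of a single library is in the table, so no library could be left out, and no other normalization, count model or permutation could be run. No paired analysis was possible because the result comes from the authors' fit and the labels give no shared numbers. Depth is unknown, and precision is limited to the authors' SE. The 3 calls among granzymes and perforin stayed at an adjusted p below 0.01, and 2 (Gzmb and Gzmc) were left with Bonferroni adjustment or with a 95% interval beyond 2-fold. Both ends of the 95% interval kept the direction of Gzmb, Gzmc, Gzmk and Prf1. This was set in advance by the table's limit of an unadjusted p below 0.05 and is no separate check. Requiring an interval beyond 2-fold lowered the number of higher genes to 0 for granule maturation, transcription factors, T cell and plasmacytoid dendritic cell markers, to 1 for granzyme inhibitors, other effectors and NK cell markers, to 4 for inducing cytokines with receptors, and to 3 for mast cell and basophil markers. An adjusted p below 0.01 left 2 transcription factors. A mean count of at least 10 left 3 mast cell and basophil markers. The unadjusted p raised granule maturation genes to 2, with Cst7. The other list counts, in either direction, stayed within 1.5 times their value under the 4 alternatives run on lists.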

Other observations

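The coding sequence and the promoter of Gzmc pointed to different relatives. Its coding sequence was nearest to that of Gzmb, at 75.6% identity against 69.5% to 72.8% for Gzmd, Gzme, Gzmf, Gzmg and Gzmn. The 250 bases before its start were 80.9% identical to those of Gzme and 80.5% to those of Gzmd, but 47.5% to those of Gzmb. Gzmd and Gzme were not in the authors' deposited table, which does not tell a small or uncertain change from absent reads. They thus give no value to set beside those of Gzmb and Gzmc. Any part of the promoter in the rise was not tested. Identities are from global alignments, and unrelated windows also reach some identity in them, such as 45.4% between Gzmc and Gzmm.

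By mean count and fold change in the 1 comparison, with each log2 axis divided by its SD over all listed genes, the 3 genes nearest to Gzmb were Ms4a6b, Vdr and Ciita. Those nearest to Gzmc were Kctd19, Spon1 and Igkv6-32, and those nearest to Prf1 were Ly75, 4930430E12Rik and Ccnf. The nearest to Gzmk, Spata31d1b, Gm2287 and Cfd, were likewise without an adjusted p. Likeness in 1 comparison does not tell whether genes vary together over libraries.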
